A study of Mus musculus with 4 samples.

Results

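The PRDM family comprises zinc finger proteins that carry a PR domain, a relative of the SET domain of histone methyltransferases. The 7 genes described here were named in advance as Prdm8, Prdm16, Mecom (also called Prdm3), Prdm2, Prdm4, Prdm10 and Prdm15, and all 7 have a row among the 11747 rows of the deposited table. The table gives the symbol for 6 of them, and the Prdm2 row, which has none there, was identified by its RefSeq accessions. The genes were chosen by family with the differences between the groups in these same libraries known, the low values of Prdm16 and Prdm8 among them. The differences of the 7 genes between groups are therefore given as a description, without a test. The table also has rows for Prdm6 and Prdm9, which were not among the chosen genes and are shown beside them. Prdm1, Prdm11, Prdm12, Prdm13 and Prdm14 have no row. Since rows with few reads are not listed, these genes cannot be called absent.

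The cells were mouse embryonic stem cells of the A172LoxP line, engineered to switch on a transcription factor transgene when doxycycline is present, and differentiated as floating aggregates towards motor neurons. All aggregates received 0.5 µM retinoic acid and 1 µM purmorphamine, an activator of Sonic hedgehog signalling, for 2 days. For the next 2 to 3 days doxycycline at 2 µg/mL was given to the aggregates behind libraries 2 and 8, and vehicle to those behind libraries 1 and 7. Both groups carry the transgene. The libraries are called by the numbers in the deposited column names, which are not replicate numbers. The study compared the groups to find genes regulated by the induced factor. There is no group with doxycycline but without the transgene, so an effect of the drug and of the induced factor cannot be told apart.

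PRDM proteins act on chromatin in different ways. Some methylate histones themselves, and others bind DNA through their fingers and recruit methyltransferases, deacetylases or CtBP co-repressors. Several members are expressed in restricted domains of the embryonic mouse neural tube, where related factors help to set neuronal identities.

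Estimated depth ranged from 22433508 reads in library 2 to 30234184 reads in library 8, both with doxycycline. The normalized read counts summed to between 26449600 and 27047500 per library (to 6 digits), and these sums do not measure depth. Of the 16 motor neuron markers 15 have a row, among them Isl1, Mnx1 and Chat. A row can be listed through 1 group alone, so the rows do not show expression in both groups. Mean normalized counts of Isl1, Mnx1 and Chat were 588, 345 and 327 with doxycycline, against 2257, 1579 and 775 without. These transcripts were thus found in both groups, at lower levels with doxycycline. Values below are normalized read counts, with means ± SD over n = 2 libraries, and differences are on the scale of log2(normalized count + 1), with minus without doxycycline, ± the limma SE. The labels do not state whether libraries sharing a group were grown as separate cultures, so the p-values measure a spread that may be technical. In bulk RNA, fewer cells of a type and less RNA per cell cannot be told apart.

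The promoters of Prdm8 and Prdm16 are shown first, because they are the sequences upstream of the chosen genes with the largest differences. Each is the 250 bases before a transcription start from RefSeq on GRCm38.p6, on the strand of the gene, and capitals mark every CANNTG (the E-box bound by basic helix-loop-helix factors), CCAAT and GGGCGG (a GC box), searched on both strands.
Prdm8, chr5:98180619-98180868, plus strand: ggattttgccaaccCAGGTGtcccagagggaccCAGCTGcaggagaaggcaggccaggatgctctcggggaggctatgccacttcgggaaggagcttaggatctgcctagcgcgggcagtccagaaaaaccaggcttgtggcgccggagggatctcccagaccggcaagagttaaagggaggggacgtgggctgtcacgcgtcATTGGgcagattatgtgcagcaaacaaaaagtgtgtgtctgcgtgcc
Prdm16, chr4:154636874-154637123, minus strand: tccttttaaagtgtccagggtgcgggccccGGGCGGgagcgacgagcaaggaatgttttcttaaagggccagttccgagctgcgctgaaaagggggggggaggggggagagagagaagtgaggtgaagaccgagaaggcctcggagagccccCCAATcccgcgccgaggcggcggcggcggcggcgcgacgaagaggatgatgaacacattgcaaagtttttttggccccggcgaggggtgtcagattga
The Prdm8 stretch precedes the only start that the RefSeq table gives for that gene. This start lies within the gene record and not at the first base of the transcript with the row's accession, so the window is not the only possible promoter of Prdm8.

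The Prdm8 window had a GC content of 59.6% and the Prdm16 window one of 62.4%, against a median of 52.4% over 32851 RefSeq promoter windows of the same length. Prdm16 had 22 CpG dinucleotides and Prdm8 had 11, where the median window had 6. Both held 1 CCAAT box, which begins at position -47 in Prdm8 and at position -98 in Prdm16, counted back from the start. CCAAT occurs in 33.8% of all windows. The E-box was present at 2 places in Prdm8, at none in Prdm16 and in 66.2% of all windows. GGGCGG was found once in Prdm16, not in Prdm8, and in 32.7% of all windows. TAATTA, a core that many homeodomain proteins bind, was in neither window, and in none of the 10 windows of the 6 chosen genes with a RefSeq start. It occurs in 4.84% of all windows. TATAAA (12.4% of all windows) and ACAAAG, a Sox-type core (16.5%), were also in neither of the printed windows.

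Prdm16 had the largest difference of the family. It encodes a zinc finger protein known for directing brown fat development and, in the mouse brain, for maintaining neural stem cells. It was listed at 43.6 and 57.3 normalized counts in libraries 2 and 8 with doxycycline, against 283 and 229.8 in libraries 1 and 7 without. Both libraries with doxycycline lay below both libraries without it. The means were 50.5 ± 9.69 with and 257 ± 37.8 without doxycycline, a level 80.3% lower with doxycycline. The log2 difference was -2.33 ± 0.24, and between single libraries of the groups it ranged from -2.67 to -1.98. Only 7 of the 11747 rows had a more negative difference, since Prdm16 was at rank 8 from the lowest.

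The Prdm16 counts with doxycycline rest on few reads, an estimated 37 in library 2 and 65 in library 8, against 317 in library 1 and 214 in library 7. In every row of the table the library with the most reads for that row holds 101 estimated reads or more. Prdm16 reached this minimum through the libraries without doxycycline alone, so its presence in the table and its direction are linked. Scaled to the library sizes, the reads with doxycycline were 0.201 times those without, with an exact 95% counting interval of 0.161 to 0.249 that covers counting error only. The row joins 2 RefSeq accessions, so the transcripts behind them cannot be separated.

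Prdm8, which in mouse neurons acts as a co-repressor beside the basic helix-loop-helix factor Bhlhe22, had the next largest difference. It had 2742 and 1746 normalized counts in libraries 2 and 8 with doxycycline, against 4553 and 3908 in libraries 1 and 7 without. The groups did not overlap, and library 8 lay well below library 2. The means were 2244 ± 705 with and 4231 ± 456 without doxycycline, a level 47.0% lower with doxycycline. The log2 difference was -0.95 ± 0.21, with single library pairs between -1.38 and -0.51. It stood at rank 122 from the lowest of the 11747 rows.

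Prdm8 varied more within the doxycycline group than most genes. Its log2 difference between library 8 and library 2 was -0.65, larger in size than that of 97.2% of all rows, where the median size was 0.11. Between libraries 7 and 1 without doxycycline it was -0.22, larger in size than that of 77.7% of all rows. Prdm16 differed by 0.39 between libraries 8 and 2 and by -0.30 between libraries 7 and 1. In the 2 pairs Prdm8 was lower in library 8 and in library 7, whereas Prdm16 was higher in library 8 and lower in library 7. The summed level of the 16 listed endoderm and mesoderm markers also differed within groups, at 238540 in library 2 and 568162 in library 8 with doxycycline, and 320464 in library 1 and 627919 in library 7 without. Its part in the spread of Prdm8 was not tested.

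**Figure D1:**
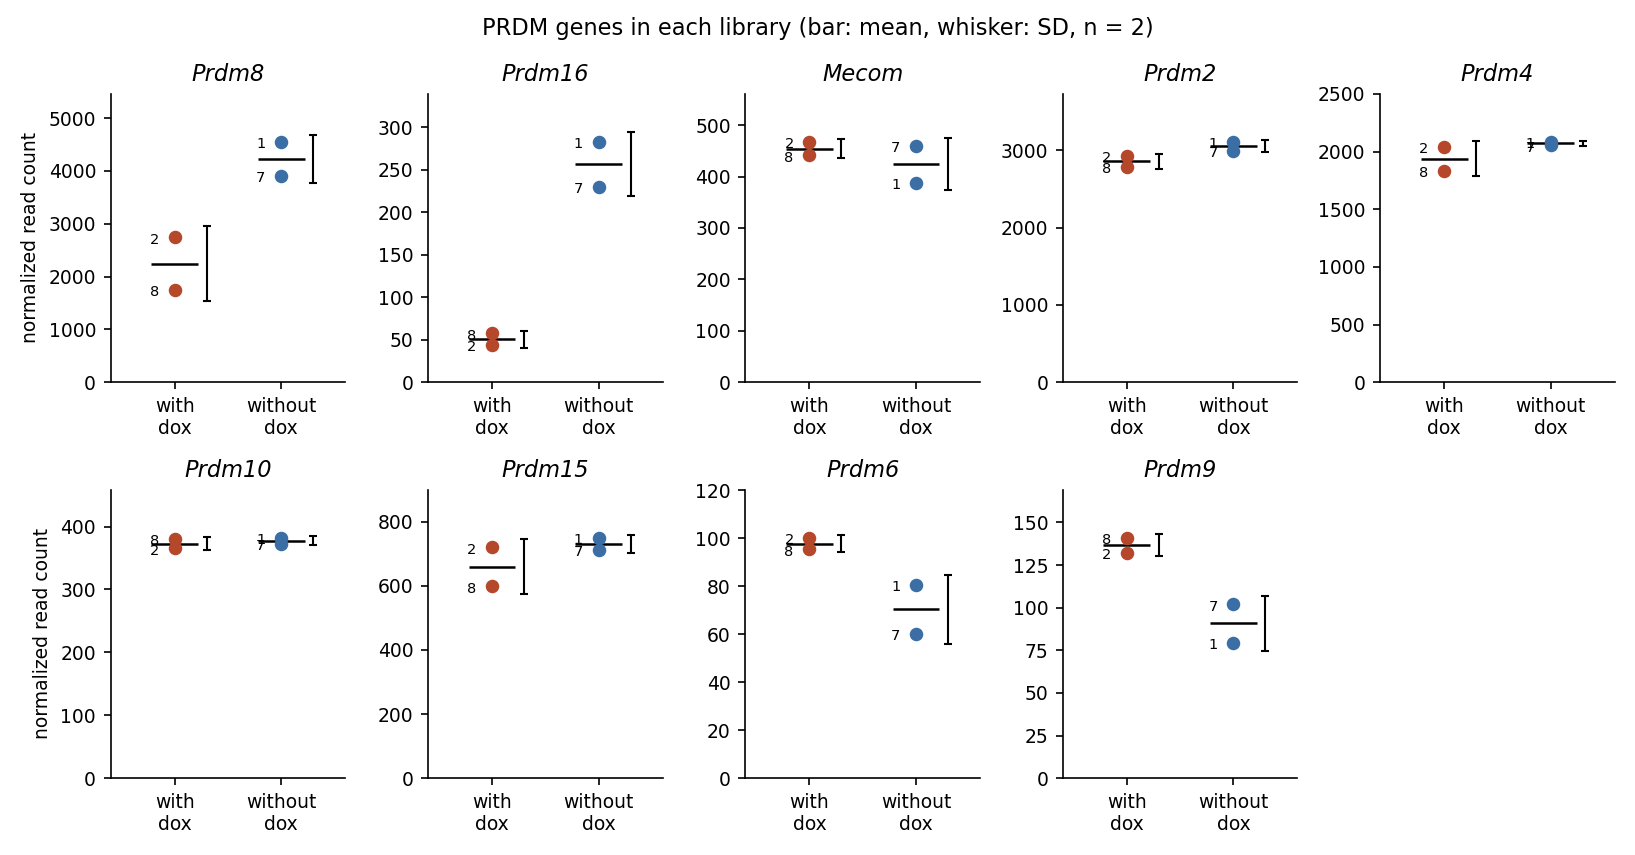
Normalized read count (linear axis from 0) of 9 PRDM genes, in libraries 2 and 8 with doxycycline (left) and 1 and 7 without (right); points are libraries labelled by number, bars the mean and whiskers the SD of 2 libraries. Prdm16 and Prdm8 lie lower in both libraries with doxycycline, Prdm6 and Prdm9 lie higher, and the other 5 genes differ by less than 10% of their mean without doxycycline.

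Mecom, the closest relative of Prdm16 and a factor of blood stem cells, had a small difference of the other sign. It had 468 and 441 normalized counts in libraries 2 and 8 with doxycycline, against 388 and 459.5 in libraries 1 and 7 without. The groups overlapped, since library 7 lay between the 2 libraries with doxycycline. The log2 difference was 0.11 ± 0.12, with library pairs from -0.06 to 0.27. The row carries 1 of several RefSeq accessions of Mecom, and the isoforms with and without the PR domain cannot be separated.

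Prdm2, a histone H3 lysine 9 methyltransferase that binds the retinoblastoma protein, and Prdm4, which binds the neurotrophin receptor Ngfr and the arginine methyltransferase Prmt5, had small differences with little spread. Prdm2 was listed at 2929.7 and 2789 with doxycycline in libraries 2 and 8, against 3114 and 2998 without in libraries 1 and 7. Prdm4 was listed at 2044 and 1832 with doxycycline, against 2087 and 2055 without. In both genes the libraries with doxycycline lay below those without. The log2 difference was -0.10 ± 0.07 for Prdm2 and -0.10 ± 0.08 for Prdm4, near the median SE of 0.10 over all rows. Both genes stood within the middle of the table, with 29.5% of rows showing a lower difference than Prdm2 and 29.3% a lower one than Prdm4.

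Prdm10 and Prdm15, zinc finger regulators studied in mouse embryonic stem cells, had overlapping groups. Prdm10 had the smallest difference of the 7 genes, with 365 and 380.2 normalized counts in libraries 2 and 8 with doxycycline, against 382 and 373 in libraries 1 and 7 without. Its log2 difference was -0.02 ± 0.11. Prdm15 had 719 and 598 normalized counts with doxycycline, against 749.8 and 711 without. The lower value of library 8 carried most of its difference of -0.15 ± 0.12, and library 2 lay between the libraries without doxycycline.

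**Figure D2:**
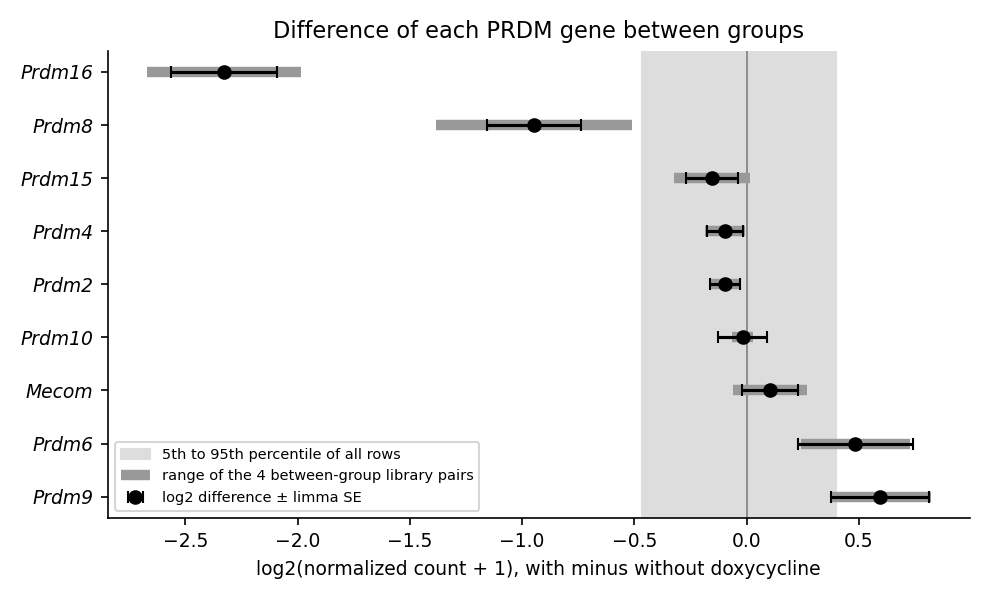
Difference in log2(normalized count + 1), with minus without doxycycline, for 9 PRDM genes; points are the estimates with the limma SE, grey bars the range over the 4 library pairs between groups, and the shaded band the 5th to 95th percentile of all 11747 rows (-0.46 to 0.40). Prdm16 and Prdm8 lie left of the band and Prdm6 and Prdm9 right of it.

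Over the 7 genes, 6 had a lower and 1 a higher mean log2 value with doxycycline, with a median difference of -0.10 against 0.00 over all rows. The groups did not overlap for 4, each lower with doxycycline, where 53.2% of all rows did not overlap in either direction and 26.5% in that one. In the limma fit of all rows 1 of the 7, Prdm16, was among the genes called at an adjusted p under 0.05, where 2.37% of all rows were called in either direction and 1.79% lower. Nothing is read from these counts, because the contrast served to choose the genes. Prdm8 was not among the called genes of that fit. Its difference was -0.84 ± 0.22 without library 1 and -1.27 ± 0.12 without library 2. It was -1.06 ± 0.22 without library 7 and -0.62 ± 0.12 without library 8. The difference of Prdm16 lay between -2.52 and -2.13 with any 1 library left out.

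Prdm6 and Prdm9 pointed the other way. Prdm9, the germ cell methyltransferase that places recombination hotspots, had 132 and 141 normalized counts in libraries 2 and 8 with doxycycline, against 79.5 and 102 in libraries 1 and 7 without. Prdm6, known from smooth muscle, had 100.2 and 95.3 with doxycycline, against 80.4 and 60.1 without. The groups did not overlap in either gene, where 26.7% of all rows were apart with higher values under doxycycline.

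Neither was called by limma. The log2 difference was 0.59 ± 0.22 for Prdm9 (limma, adjusted p = 0.202) and 0.48 ± 0.25 for Prdm6 (limma, adjusted p = 0.341). At an unadjusted p under 0.05, Prdm9 passed and Prdm6 did not. Both are low in the table, with estimated reads from 56 to 160 per library. In library 2 Prdm6 had 85 estimated reads and Prdm9 had 112. Prdm6 reached the minimum of 101 estimated reads through library 8 alone, and Prdm9 through the 2 libraries with doxycycline alone, so the direction of these rows is linked to their presence in the table. Zfpm1, a zinc finger cofactor of GATA factors kept in the same list, had a difference of 0.05 ± 0.09 (limma, adjusted p = 0.784).

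**Figure D3:**
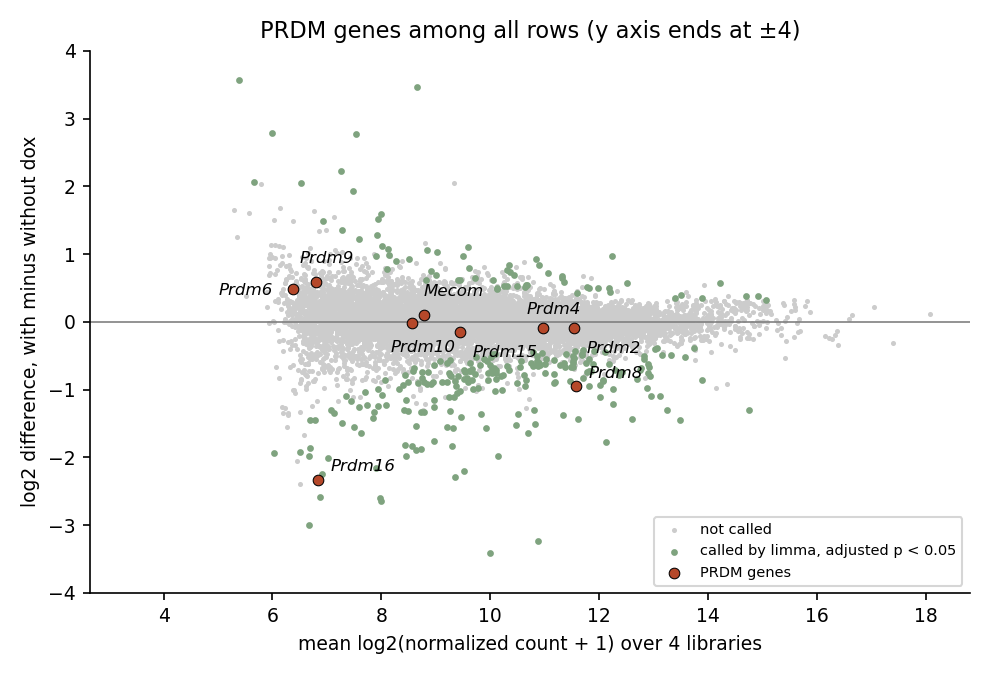
Difference in log2(normalized count + 1), with minus without doxycycline, against the mean log2 value over the 4 libraries for all 11747 rows; green points were called by limma, red points are 9 PRDM genes, and 2 rows lie beyond the vertical axis. Prdm16 lies among the lowest of all rows and the other marked PRDM genes lie between -0.95 and 0.59.

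The order of the levels was compared per length, using the longest GENCODE transcript that carries an accession of the row. Without doxycycline Prdm8 was the highest of the 9 genes, at 929 ± 100.2 normalized counts per kilobase, followed by Prdm4 at 523 ± 5.65 and Prdm2 at 418 ± 11.2. These 3 did not overlap. With doxycycline Prdm8 stood at 493 ± 155 per kilobase and Prdm4 at 489 ± 37.9, and their libraries overlapped, while Prdm2 at 391 ± 13.6 lay below Prdm4 in both libraries. Prdm8 was thus no longer separated from Prdm4 by more than the spread between libraries.

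A middle set lay well below Prdm2. With doxycycline the mean was 109 ± 3.05 normalized counts per kilobase for Prdm10, 104 ± 13.5 for Prdm15 and 104 ± 4.36 for Mecom, and each overlapped with the next in this order. Without doxycycline it was 111 ± 2.06 for Prdm10, 115 ± 4.35 for Prdm15 and 96.7 ± 11.6 for Mecom. Prdm10 and Prdm15 overlapped there, and Mecom lay below Prdm10 in both libraries.

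The lowest set held Prdm9, Prdm6 and Prdm16. With doxycycline Prdm9 was at 39.5 ± 1.86 per kilobase, Prdm6 at 37.1 ± 1.33 and Prdm16 at 5.87 ± 1.13. Prdm9 and Prdm6 were nearly level, at 38.16 and 38.09 per kilobase in library 2, so no order is read from them. Prdm16 lay well below both in both libraries. Without doxycycline Prdm9 was at 26.2 ± 4.59, Prdm6 at 26.7 ± 5.46 and Prdm16 at 29.8 ± 4.4, and all of these overlapped with the next in order. Prdm16 was therefore level with Prdm6 and Prdm9 without doxycycline, and was the lowest of the 9 genes with it.

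**Figure D4:**
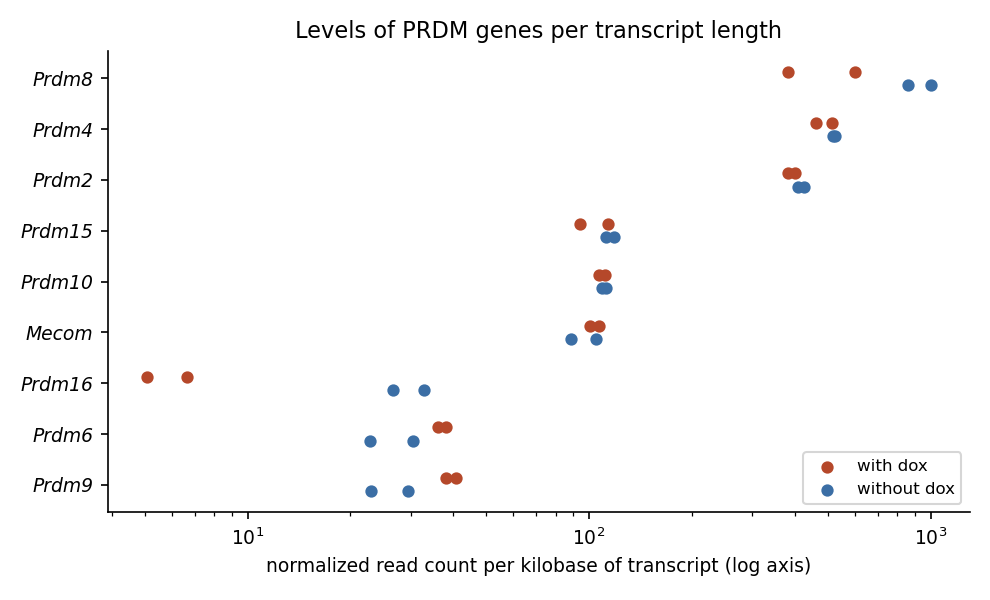
Normalized read count per kilobase of transcript (log axis) for 9 PRDM genes, 1 point per library; libraries with doxycycline are drawn above those without. Prdm8, Prdm4 and Prdm2 lie highest, and Prdm16 with doxycycline is apart from all others at 5.07 and 6.67.

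The profiles nearest to Prdm8 and Prdm16 over the 4 libraries were ranked by the distance between log2 values centred on each gene's mean. For Prdm8 they were Ajap1 (distance 0.07 on the log2 scale), Cntn2 (0.09), Runx1t1 (0.11), Lrrn3 (0.14) and Fam70a (0.15). Cntn2, an axonal adhesion molecule, had 15862 and 10424 normalized counts in libraries 2 and 8 with doxycycline, against 28293 and 22526 in libraries 1 and 7 without. Runx1t1, a co-repressor of the ETO family, had 784 and 550.4 with doxycycline, against 1406 and 1188 without. All 5 share the low value of library 8 with Prdm8. They were picked for this likeness, so their differences between groups (Fam70a -0.93, Ajap1 and Cntn2 -0.97) are given without a test.

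For Prdm16 the nearest profiles were less close. They were those of Hs3st4, a heparan sulfate sulfotransferase gene (distance 0.37), Rasgef1c (0.45), Siah3 (0.45), Abcc8, a subunit of potassium channels (0.53), and Rai2 (0.57). Hs3st4 had 44.8 and 49.4 normalized counts in libraries 2 and 8 with doxycycline, against 290.4 and 285 in libraries 1 and 7 without. Its log2 difference was -2.59 ± 0.19, and those of the other 4 lay between -2.29 and -1.89, likewise without a test. Hs3st4, Siah3 and Abcc8 reached the minimum of 101 estimated reads through the libraries without doxycycline alone. The distance between Prdm8 and Prdm16 themselves was 1.56. The measure is not scaled for the size of a change, so the gap between -0.95 and -2.33 adds to it. Both genes were lower in both libraries with doxycycline, and they differed in the order of libraries 2 and 8. With 4 libraries such distances are a description.

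**Figure D5:**
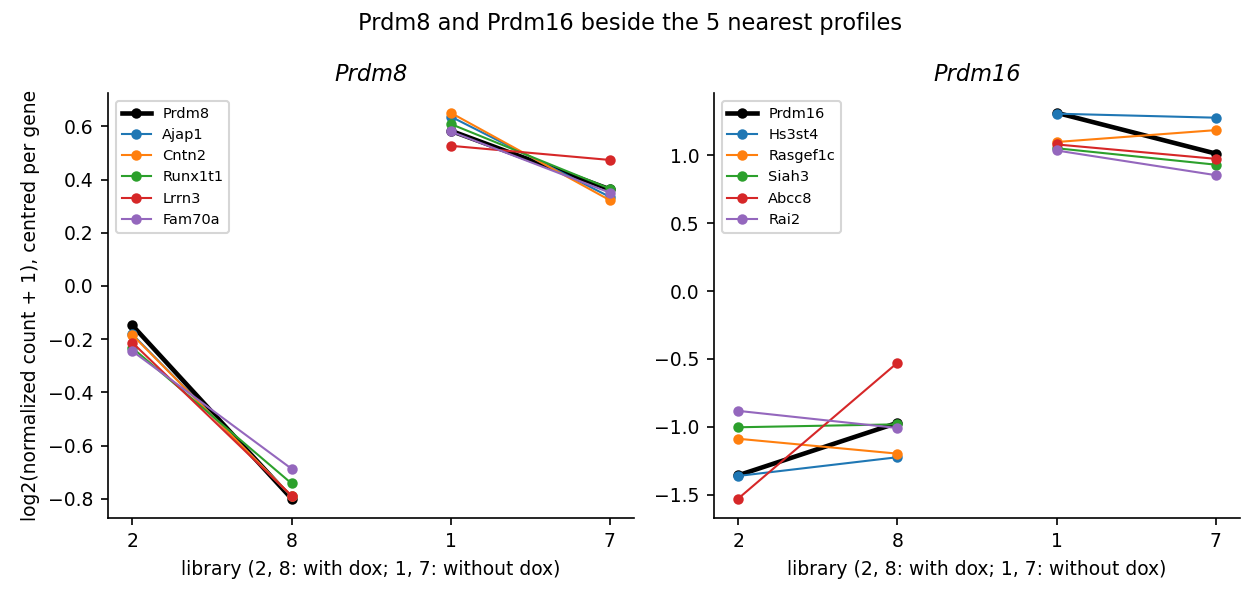
Centred log2(normalized count + 1) of Prdm8 (left) and Prdm16 (right), in black, and of the 5 genes with the nearest profile, in libraries 2 and 8 with doxycycline and 1 and 7 without; lines join libraries of a group only. The genes near Prdm8 share a lower value in library 8 than in library 2, and the genes near Prdm16 differ among themselves in the order of those libraries.

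The nearest listed genes around the pair on the chromosome were examined because neighbours can share regulation or overlapping reads. None of them is the directly adjacent annotated gene. Around Prdm8 they were Antxr2, 3 annotated genes away on one side (-0.25 ± 0.17; limma, adjusted p = 0.466), and Rasgef1b, 11 away on the other (-0.29 ± 0.13; limma, adjusted p = 0.275). Around Prdm16 they were Arhgef16, 2 annotated genes away (0.27 ± 0.22; limma, adjusted p = 0.532), and the transcript 5930403L14Rik. The last had 64.8 and 42.3 normalized counts in libraries 2 and 8 with doxycycline, against 198 and 144 in libraries 1 and 7 without, and its difference, -1.67 ± 0.30, was not called (limma, adjusted p = 0.0563). It too reached the minimum of reads through the libraries without doxycycline alone. It lies 4 annotated genes away from Prdm16, and Hes5, the next listed gene on that side, had 0.23 ± 0.19 (limma, adjusted p = 0.534). These neighbours were described after their values were seen.

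Partners and targets known for PRDM proteins were counted in 1 set with SET domain enzymes outside the family and related chromatin genes. Over these 7 lists with 73 listed genes, 1 gene fell and none rose in the limma fit, where 1.79% of all rows were called lower and 0.579% higher, so the count is near the background. The median difference was -0.02 against 0.00 over all rows. An unadjusted p under 0.05 was found for 10 of the 73, where 21.1% of all rows had one, and the counts at an unadjusted p given for single lists are to be read against that share.

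The gene that fell was Ngfr, the neurotrophin receptor that Prdm4 binds and a gene that motor neurons also express. It had 2228 and 1633 normalized counts in libraries 2 and 8 with doxycycline, against 5947 and 4442 in libraries 1 and 7 without, a difference of -1.43 ± 0.19 (limma, adjusted p = 0.0301). The call was lost without library 8, at -1.21 (limma, adjusted p = 0.0911, against 0.00233 to 0.0314 with any other library left out). The other partners in that list of 8 gave no call. Prmt5 was at 3940 ± 113 with and 4202 ± 41.8 without doxycycline, and Rb1, the retinoblastoma gene, at 2738 ± 130.4 and 2690.0 ± 209 in that order.

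Bhlhe22, the partner of Prdm8, had 275 and 175 normalized counts in libraries 2 and 8 with doxycycline, against 179 and 103 in libraries 1 and 7 without. The groups overlapped, and the difference, 0.69 ± 0.33, was not called (limma, adjusted p = 0.309). Cdh11, a cadherin that the pair represses in mouse forebrain, had 2773 and 2270.5 with doxycycline, against 2268 and 2166 without. Its difference was 0.18 ± 0.11 and was not called (limma, adjusted p = 0.402). Among the 4 genes of this list with a row none was called and 2 had an unadjusted p under 0.05, Bhlhe23 at 0.69 ± 0.24 (limma, adjusted p = 0.191) and Ebf3, a factor of early neurons, at -0.53 ± 0.19 (limma, adjusted p = 0.190).

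The genes listed as co-repressor partners of PRDM16 and MECOM, which also include Smad2, Smad3 and Smad4, had differences between -0.15 and 0.19. None of the 20 was called in limma, and 2 had an unadjusted p under 0.05. The CtBP genes were both slightly lower with doxycycline. Ctbp1 was at 8377 ± 98.9 with and 9297 ± 327 without doxycycline, a difference of -0.15 ± 0.06 (limma, adjusted p = 0.226), and Ctbp2 differed by -0.11 ± 0.06 (limma, adjusted p = 0.382). The histone chaperone gene Rbbp7 differed by 0.19 ± 0.07 (limma, adjusted p = 0.215) and the deacetylase genes Hdac1 by 0.17 ± 0.07 and Hdac2 by -0.10 ± 0.10 (limma, adjusted p = 0.242 and 0.626). Skil, a repressor of SMAD signalling that binds PRDM16, varied more within the groups than between them, with 2580 and 1586 in libraries 2 and 8 with doxycycline, against 2292 and 1400.1 in libraries 1 and 7 without.

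The lists of SET domain enzymes outside the PRDM family and of related chromatin genes gave no call. None of the 10 listed histone H3 lysine 9 methyltransferase and heterochromatin genes was called, and none had an unadjusted p under 0.05 in limma. Their differences ranged from -0.07 to 0.23. Ehmt1 and Ehmt2, which encode the enzymes GLP and G9a, were at -0.03 ± 0.06 and 0.02 ± 0.06. Suv39h2 was at 0.21 ± 0.11 (limma, adjusted p = 0.324) and Setdb2 at 0.23 ± 0.14 (limma, adjusted p = 0.423). Of the 18 genes listed for lysine 4 and lysine 36 methylation, not all of which encode such enzymes, none was called. Among them 1, Smyd3, had an unadjusted p under 0.05, with a difference of 0.30 ± 0.09 (limma, adjusted p = 0.155). Mll2 was at -0.12 ± 0.07 (limma, adjusted p = 0.364).

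Targets described for other members gave no call. Of the 7 listed activator partners and targets of PRDM16, Gpx4, an enzyme that removes lipid peroxides, had the smallest p, at 0.23 ± 0.09 (limma, adjusted p = 0.233), and it was the 1 gene of this list with an unadjusted p under 0.05. Rxra was at 0.08 ± 0.07 (limma, adjusted p = 0.578). Ppargc1a, Ucp1, Cidea and the other brown fat genes of the list have no row. Of the 8 targets of PRDM15 and PRDM10, Spry1, a feedback inhibitor of FGF signalling, had 269.98 and 253 normalized counts in libraries 2 and 8 with doxycycline, against 518 and 373 in libraries 1 and 7 without. Its difference, -0.75 ± 0.18, was not called (limma, adjusted p = 0.0983). Eif3b, a translation initiation factor gene, was at -0.15 ± 0.06 (limma, adjusted p = 0.209), and Spry1 and Eif3b were the 2 of these 8 with an unadjusted p under 0.05.

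Cell type markers moved with Prdm16 and Prdm8. Of the 15 listed motor neuron markers 9 fell and none rose in limma, Slc18a3, Ret, Prph, Mnx1, Isl2, Chat, Isl1, Ebf2 and Lhx4, and their median difference was -1.23. The summed level of the list was 12073 and 12157 in libraries 2 and 8 with doxycycline, against 20462 and 20436 in libraries 1 and 7 without. Slc5a7 has no row. Of the 18 radial glia and progenitor markers 2 rose (Slc1a3, Notch3) and 1 fell (Irx3), with sums of 58231 and 63057 with doxycycline, against 55217 and 55783 without. Of the 8 V2 interneuron markers Sox14 and Sox21 rose and Lhx4 fell, and of the 4 markers of V0, V1 and V3 interneurons Nkx2-2 rose. Sox14 (46 and 119 estimated reads in libraries 2 and 8 with doxycycline, against 0 and 1 in libraries 1 and 7 without) and Nkx2-2 (325 and 695 with, against 59 and 86 without) are in the table through the libraries with doxycycline alone, so their direction is linked to their presence there, and nothing is read from these 2 calls. Apoe rose among 16 endoderm and mesoderm markers, and in limma none of the 7 pluripotency markers (Esrrb at -0.36 ± 0.37 and Klf4 at -0.35 ± 0.30) or 6 endothelial and blood markers was called, with 0 and 2 of them (Cdh5 at -0.72 ± 0.15 and Kdr, listed through the libraries without doxycycline alone, at -0.85 ± 0.21) at an unadjusted p under 0.05. The summed endothelial and blood level was 1618 and 2181 with doxycycline, against 1863 and 2421 without, and Pecam1, Tie1 and Ptprc have no row. Afp and Apoa1 (endoderm) and Sox10 and Tfap2a (neural crest) have none either. The part of these shifts in cell type markers in the values of Prdm16 and Prdm8 was not tested. Without library 8 the calls of Chat, Ebf2, Lhx4, Nkx2-2, Irx3, Slc1a3, Notch3, Sox14, Sox21, Apoe and Ngfr were among those lost, so that 6 of the 18 called genes of all lists were still called.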

How the data were processed

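Libraries were made from total RNA with Illumina TruSeq chemistry, per the labels' protocols. Of tools, CASAVA, TopHat2, HTSeq and DESeq are listed in the submitters' processing notes, with mm9 as build. Their settings are not given in the sources used here. Whether counting used strand is not stated either, so reads of a gene and of one that overlaps it cannot be separated. The deposited signal is a normalized read count per row. Estimated reads came from the steps of the low values (0.882 to 1.18 per read), of which 100% were whole multiples to within 0.1, and no count model was fitted. Column names give the group through initials of the treatment label, not the sample. Symbols came from the table (11335 rows) or by accession from RefSeq on GRCm38 (375 rows), which also gave promoters and neighbours; transcript lengths came from GENCODE M21.

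Values were taken as log2(normalized count + 1). The filter, a row mean of at least 10, removed no row (lowest mean 40.1). All rows were fitted with limma 3.58.1 in R 4.3.3 with a trend on mean level (two-sided, Benjamini-Hochberg adjusted p under 0.05) (2 residual and 3.83 prior degrees of freedom). With 2 libraries a group, the smallest p of an exact permutation test is 0.333. At an unadjusted p under 0.05, 2474 rows differed. The fit was also run on simulated counts with the same spread setting for every gene and independent libraries. These conditions differ from the data, so nothing is read from that run about the calls. Python 3.11.15, pandas 2.3.3, numpy 2.4.6, scipy 1.17.1 and matplotlib 3.10.9 were used. The genes and lists were chosen with earlier results of these data known. Named genes are the PRDM genes, the called genes of each list or the 2 with the smallest p, a panel of 12 partners and the 5 nearest profiles to Prdm8 and Prdm16; others were chosen after their values were seen, and some genes that the rule names are not reported here. Alternatives were other pseudocounts, filters, scalings and variance models, each library left out, and a replicate block.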

Additional observations from a re-analysis of the deposited data

How the results depend on the processing

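Prdm16 was lower with doxycycline under every alternative tried, between -2.52 and -2.13, and Prdm8 between -1.27 and -0.62. The groups did not overlap for either gene, so leaving out 1 library could not reverse the direction. The filters, the variance models and the replicate block left both estimates unchanged. The kept direction is therefore a description. The number of genes called was 278, 68 higher and 210 lower. Without trend it was 105 (27 and 78) and with robust empirical Bayes 419 (132 and 287). Leaving out 1 library gave 44 to 494 calls, 2 to 156 higher and 42 to 338 lower, 1 to 2 of the 7 PRDM genes, and 6 to 22 called genes of the lists, against 18 with all libraries. There the lone library of a group is assumed to vary like the other group. Without trend 8 list genes were called. The labels' replicate numbers are not in the column names. A replicate block with libraries 1 and 2 as one pair and 7 and 8 as the other gave 3508 calls (1636 higher and 1872 lower), 2 of the 7 PRDM genes (Prdm16 and Prdm8) and 70 list genes. Prdm9 was also called with this block. Nothing is read from the calls of the 7 chosen genes in any of these fits, because the contrast served to choose them. The deviations of libraries 1 and 2 from their group means correlated over genes (Pearson r = 0.63), but that fit has 1 residual degree of freedom and an infinite prior, so its p-values rest on the spread shared by all genes. Ngfr was not called without trend, with robust empirical Bayes or without library 8. Of the list medians, 181 of 208 stayed within their limit of 0.1. For the other PRDM genes the limit was their SD within groups. Leaving out 1 library cannot move a gene beyond it, so nothing is read from their staying within it. Mecom went from 0.11 to -0.02 without library 1, and Prdm10 from -0.02 to 0.01 without library 2. Quantile normalization shifted the median of all rows to 0.02.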
